A study of Mus musculus with 9 samples.

Results

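The genes described here are 10 protein-coding genes of the mouse mitochondrial chromosome: mt-Nd1, mt-Nd2, mt-Nd4, mt-Nd5, mt-Nd6, mt-Cytb, mt-Co1, mt-Co2, mt-Co3 and mt-Atp6. They were taken by symbol and chromosome (GENCODE M21, chromosome M) from a table of 54281 genes, and all 10 were found and passed the filter on low counts. The same chromosome held 37 genes in the annotation, of which 13 code for protein, 22 are tRNA genes and 2 are rRNA genes. The 3 remaining coding genes, mt-Nd3, mt-Nd4l and mt-Atp8, are given beside the 10 where a result turns on them.

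Total RNA was sequenced from lung macrophages that had been washed out of the airspace, with massage, from wild-type females 12 weeks old. Mice were killed 24 h after (n = 3) or 72 h after (n = 3) breathing ozone at 0.8 ppm for 3 h, or had breathed air (n = 3). The design text counts n in mice, the labels name no strain, and wild type is the only genotype they give. The comparisons share libraries, so their values are not independent of each other. Ozone is an oxidant gas that injures the epithelium of the airways and alveoli.

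The respiratory chain sits in the inner mitochondrial membrane and passes electrons through complexes I, III and IV to oxygen, while complex V, the ATP synthase, uses the resulting proton gradient to make ATP. Most subunits are encoded in the nucleus and imported, but a core set is encoded on the mitochondrial chromosome, transcribed there as long RNAs from both strands and cut into separate mRNAs, largely at the tRNAs that lie between the coding genes. Alveolar macrophages, the resident phagocytes of the airspace, are known for a strong reliance on oxidative metabolism.

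Libraries held 47095543 to 60248305 estimated counts, and the 10 genes took between 2.55% and 5.82% of them. The 20 alveolar macrophage markers (such as Marco and Siglecf) summed to 29402 to 45700 CPM (counts scaled by TMM to a common library size) in all 9 libraries, so the labelled cell type was present in each. A pair of libraries stood apart. In 24 h replicate 2 and 72 h replicate 1, 14 B cell markers summed to 1809 and 1013 CPM (the rest of the libraries, 7 in number, had 2.19 to 13.6 CPM), and 14 T cell markers to 1094 and 131 CPM (9.25 to 33.4 CPM in the rest). All 14 of each list were higher in both libraries than in any of the 7. Markers of serous cavity macrophages (822 and 1021 CPM, against 143 to 193 CPM), erythroid cells (2910 and 2511 CPM, against 12.3 to 855 CPM) and neutrophils (132 and 100 CPM, against 19.4 to 30.4 CPM) were also higher in these libraries, and alveolar macrophage markers were lower (29402 and 33259 CPM, against 37644 to 45700 CPM). One air library, replicate 2, stood apart in Xist, the RNA of the inactive X chromosome. Xist was at 2.42 CPM there and at 887 to 1482 CPM in the 8 others, while the Y-linked genes Ddx3y and Eif2s3y were at 0 in all 9. The library thus showed no male RNA, and the cause of its low Xist was not tested. The comparisons of the members, of Gm29216 and of the nuclear subunits are also given without the pair, and the calls among them without air replicate 2.

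The mitochondrial coding genes lie close together, and 4 neighbouring pairs overlap. The overlaps are shown because a read inside an overlap of genes on the same strand belongs to both genes, and because the proportions of these genes are described below. For genes on opposite strands, whether such a read can be told apart depends on the strand setting of the counting, which was not given. Coordinates are of GRCm38, the sequence is that of the plus strand, and capitals mark the bases shared by both genes. The first pair is mt-Atp8 and mt-Atp6 (chrM:7915-7981, 43 shared bases), the second mt-Nd4l and mt-Nd4 (chrM:10155-10185, 7 shared bases), and the third mt-Nd5 and mt-Nd6 (chrM:13540-13577, 14 shared bases).
mt-Atp8/mt-Atp6: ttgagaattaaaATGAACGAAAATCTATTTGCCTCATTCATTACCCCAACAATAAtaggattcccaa
mt-Nd4l/mt-Nd4: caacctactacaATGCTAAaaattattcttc
mt-Nd5/mt-Nd6: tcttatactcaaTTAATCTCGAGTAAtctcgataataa
In the first and second pair both genes run the same way, and mouse mt-Atp8 with mt-Atp6 and mt-Nd4l with mt-Nd4 are each known as one mRNA that carries both reading frames. In the third pair the genes face each other and the overlap holds both stop codons. The fourth pair, mt-Atp6 and mt-Co3, shares 1 base.

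mt-Nd6 is the only coding gene of the mitochondrial chromosome on its minus strand (chrM:13552-14070), and its sense strand is built differently from that of the other members. G made up 28.1% and C 5.97% of mt-Nd6, whereas G made up between 8% (mt-Nd2) and 16.1% (mt-Co1) of the other 9 members. The first 30 bases of mt-Nd5 (chrM:11742-13565) and of mt-Nd6, each on its own strand with the start codon in capitals, show the contrast.
mt-Nd5: ATCaatattttcacaacctcaatcttatta
mt-Nd6: ATGaataattatatttttgttttaagttca
mt-Nd5 opens on ATC, one of the start codons that mouse mitochondria use beside ATG.

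Copies of mitochondrial DNA in the nuclear genome can take reads from these genes. Of the annotated transcripts outside chromosome M, 15 genes matched a member over at least 100 bases at 90% identity or more, and the most counted of them by far was Gm29216, a pseudogene on chromosome 1 (chr1:24615706-24616197, minus strand) with 489413 counts over the 9 libraries. It matches the last part of mt-Co1 (positions 1063 to 1545, counted from the first base of the start codon) over 483 bases with 1 difference, A1066T, shown here in capitals on the strand of mt-Co1 (chrM:6390-6408, plus strand; chr1:24616170-24616188, minus strand).
mt-Co1: ggaAttgttttatccaact
Gm29216: ggaTttgttttatccaact
Reads from this stretch that miss position 1066 fit both loci equally, so how many counts of Gm29216 came from mt-Co1 cannot be told from the table. The next most counted copies were Gm13340 on chromosome 2 (2481 counts, 97.6% identical to mt-Co1) and Gm13341 on chromosome 2 (301 counts, 95.9% identical to mt-Co2). Gm10925, Gm28437, Gm28661 and Gm28439, which are 100% identical over their aligned length to mt-Atp6, mt-Co3, mt-Co2 and mt-Nd4, were listed at 0 in every library, which for identical sequences says only that the estimate gave them no counts.

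The 10 genes together made up 2.7%, 4.94% and 2.67% of all counts in the 24 h libraries, 5.82%, 2.77% and 2.87% in the 72 h libraries, and 2.68%, 2.68% and 2.55% in the air libraries, in replicate order. The share was 3.44 ± 1.3% at 24 h, 3.82 ± 1.73% at 72 h and 2.64 ± 0.0739% in air (SD, n = 3 each). The 7 libraries with low lymphocyte markers lay between 2.55% and 2.87%. Both libraries that carried other cells lay far above them, and the remaining 24 h and 72 h libraries differed from air by little. Without this pair of libraries the share exceeded that of air by 0.0499 percentage points at 24 h and by 0.185 at 72 h, against 0.802 and 1.18 points with them. In bulk RNA, a different mix of cells and a different amount of mitochondrial RNA per cell cannot be told apart.

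**Figure D1:**
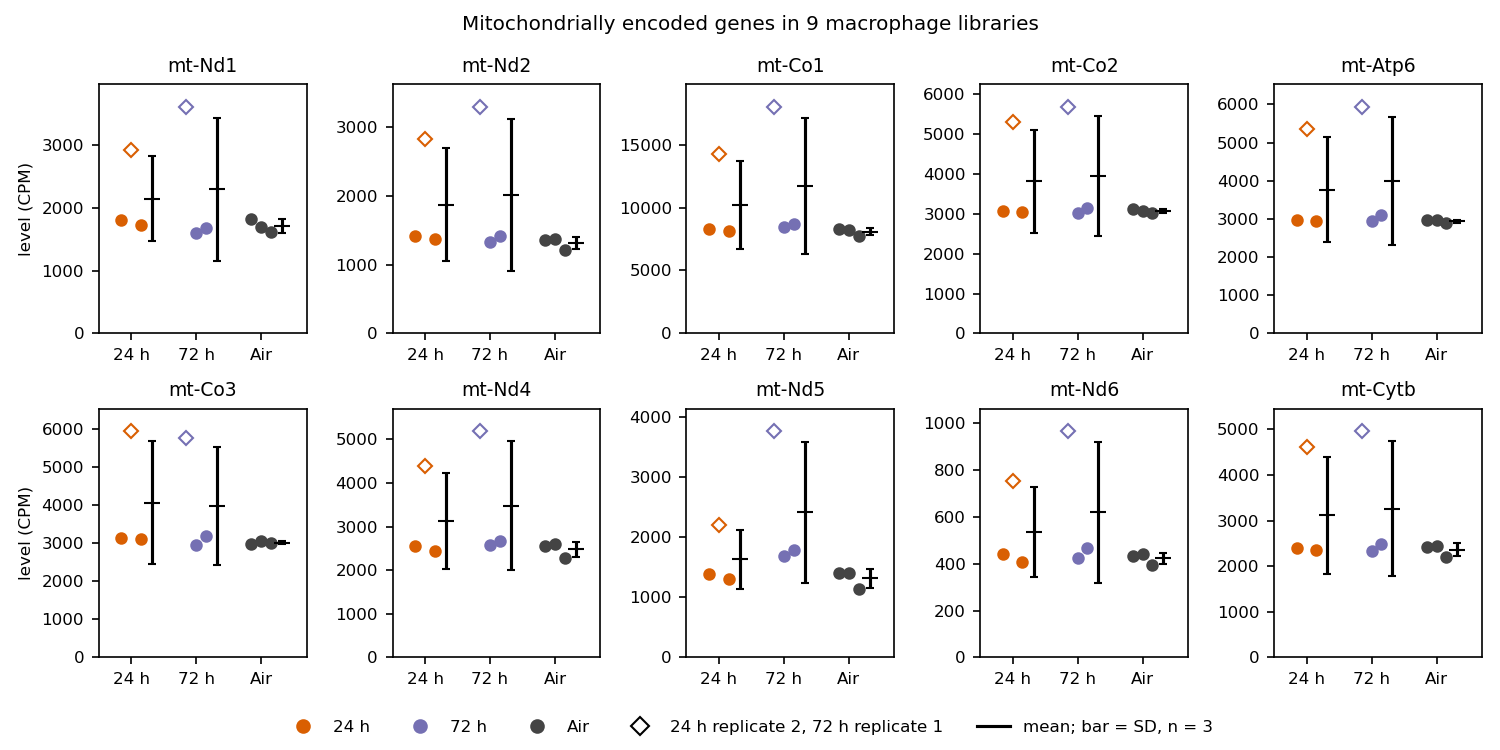
Level of each of the 10 mitochondrially encoded genes in CPM (y axis from 0) in the 24 h, 72 h and air libraries; points are libraries, open diamonds are 24 h replicate 2 and 72 h replicate 1, and the bar is the mean with SD (n = 3). In all 10 panels the open diamonds lie above the other 7 libraries, which lie close together in every panel except that of mt-Nd5.

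Complex I, NADH dehydrogenase, takes electrons from NADH, and 5 of the 10 genes encode its membrane subunits. mt-Nd1 stood at 1802, 2921 and 1722 CPM at 24 h, 3605, 1593 and 1685 CPM at 72 h, and 1825, 1698 and 1610 CPM in air. mt-Nd2 had 1414, 2823 and 1375 CPM at 24 h, 3286, 1326 and 1414 CPM at 72 h, and 1361, 1376 and 1215 CPM in air. mt-Nd4 had 2557, 4391 and 2445 CPM at 24 h, 5190, 2584 and 2667 CPM at 72 h, and 2559, 2599 and 2288 CPM in air. In these 3 genes the high values belonged to 24 h replicate 2 and 72 h replicate 1, and the ranges of ozone and air libraries overlapped. mt-Nd5, a subunit at the far end of the membrane arm, had 1395, 2204 and 1311 CPM at 24 h, 3771, 1683 and 1797 CPM at 72 h, and 1414, 1407 and 1136 CPM in air. All 3 of its 72 h values lay above all 3 air values, and the 72 h range overlapped that of 24 h through 24 h replicate 2 alone. mt-Nd6, transcribed from the opposite strand, had 443, 754 and 408 CPM at 24 h, 965, 423 and 466 CPM at 72 h, and 431, 439 and 396 CPM in air, with overlapping ranges.

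Complex III carries 1 mitochondrially encoded subunit, cytochrome b, the product of mt-Cytb. Its level was 2393, 4607 and 2346 CPM at 24 h, 4964, 2339 and 2486 CPM at 72 h, and 2433, 2450 and 2203 CPM in air. Complex IV, cytochrome c oxidase, passes electrons to oxygen, and mt-Co1, mt-Co2 and mt-Co3 encode its catalytic core. mt-Co1, the most abundant of the 10, had 8272, 14244 and 8142 CPM at 24 h, 17973, 8464 and 8689 CPM at 72 h, and 8296, 8223 and 7757 CPM in air. Its 72 h values lay above all air values, the lowest at 72 h by a narrow margin. mt-Co2 had 3083, 5314 and 3056 CPM at 24 h, 5677, 3009 and 3145 CPM at 72 h, and 3119, 3062 and 3028 CPM in air. mt-Co3 had 3144, 5947 and 3121 CPM at 24 h, 5769, 2964 and 3200 CPM at 72 h, and 2979, 3055 and 3016 CPM in air, and its 24 h values lay above those of air. mt-Atp6, which encodes the subunit of complex V that carries protons across the membrane, had 2976, 5352 and 2956 CPM at 24 h, 5928, 2953 and 3090 CPM at 72 h, and 2959, 2960 and 2894 CPM in air.

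The size of the excess in the pair of libraries was not the same for all genes. In 24 h replicate 2 the level over the median of the other 7 libraries lay between 1.57 (mt-Nd5) and 2.05 (mt-Nd2), and in 72 h replicate 1 between 1.85 (mt-Co2) and 2.68 (mt-Nd5). This median is taken over all 3 groups, so for mt-Nd5 the value of 72 h replicate 1 includes how far the other 72 h libraries stood above air. Among the other 7 libraries, the highest level divided by the lowest was 1.05 for mt-Co2 and 1.58 for mt-Nd5, with 1.18 or less for the 9 members other than mt-Nd5. The part of the B cell, T cell, erythroid and serous macrophage RNA in the excess was not tested.

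On a common scale of CPM per kilobase of gene, the members of complexes IV and V stood above mt-Cytb, and mt-Cytb above the complex I genes. In air, mt-Co1 was highest (5238 ± 189 CPM per kilobase, SD, n = 3), followed by mt-Co2 (4488 ± 67.2), mt-Atp6 (4314 ± 55.2) and mt-Co3 (3848 ± 48.4). mt-Cytb (2065 ± 121) came next. The complex I genes were lowest, with mt-Nd4 at 1801 ± 123, mt-Nd1 at 1788 ± 113, mt-Nd2 at 1269 ± 85.4, mt-Nd6 at 814 ± 44.5 and mt-Nd5 at 723 ± 86.8 CPM per kilobase. In this order each gene stood above the next in 3 of 3 air libraries without overlap, except that mt-Nd4 and mt-Nd1 overlapped, as did mt-Nd6 and mt-Nd5. The bottom of the order differed at 72 h: mt-Nd5 (1325 ± 644 CPM per kilobase) stood above mt-Nd6 (1191 ± 580) in 3 of 3 libraries, whereas mt-Nd6 stood above mt-Nd5 in 3 of 3 libraries at 24 h (1031 ± 366 against 897 ± 270) and in 3 of 3 in air.

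**Figure D2:**
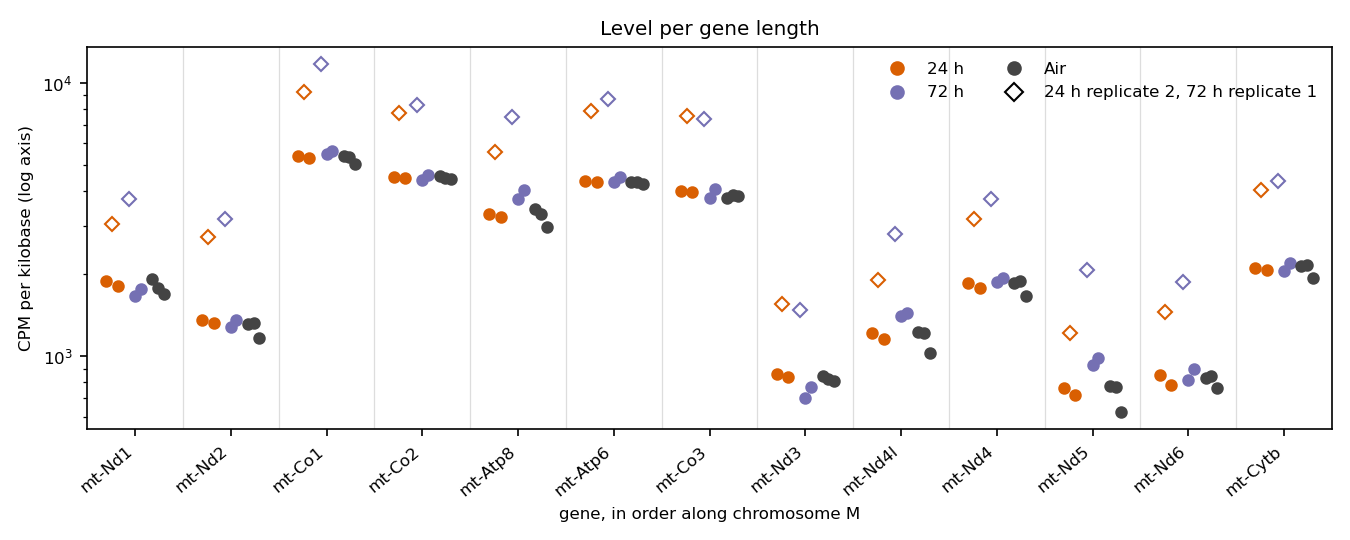
Level in CPM per kilobase of gene (log axis) of the 13 coding genes of chromosome M, in their order along it, in the 24 h, 72 h and air libraries; open diamonds are 24 h replicate 2 and 72 h replicate 1. The genes of complexes IV and V stand above mt-Cytb and the complex I genes in every group, and mt-Nd5 and mt-Nd6 change places at 72 h.

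Tested over all genes, no member passed in any comparison. At 24 h against air, 0 of the 10 were called by edgeR's quasi-likelihood test (adjusted p under 0.05), where 0.00636% of the 15713 genes tested were called, and 0 had an unadjusted p under 0.05. The log2 fold changes of the members were 0.31 to 0.51 (median 0.34, against 0.01 over all genes), and the groups were apart for 1 member, mt-Co3, where 10.4% of all genes had all 3 libraries above air. For 72 h against air, 0 of 10 were called against a background of 5.47%, with 1 unadjusted p under 0.05, and the log2 fold changes were 0.36 to 0.87 (median 0.48, against -0.01 over all genes). All 3 libraries lay above air for 2 members, mt-Nd5 and mt-Co1, against 17.5% of all genes. Between 72 h and 24 h, 0 of 10 were called against a background of 18.2%, 0 had an unadjusted p under 0.05, and the log2 fold changes were -0.03 to 0.56 (median 0.10, against -0.03 over all genes). No member had all 3 libraries at 72 h above those at 24 h, where 15.0% of all genes did. DESeq2 and limma voom on the same 9 libraries also called 0 of 10 in each comparison.

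The intervals were wide with all 9 libraries and narrow without the pair that carried other cells. For mt-Co1 at 72 h against air, the log2 fold change was 0.53 with a nominal 95% interval (± 1.96 SE) of -0.11 to 1.17. Without the pair it was 0.11 with an interval of -0.02 to 0.23. At 24 h against air the values for mt-Co1 were 0.34 (-0.30 to 0.98) and 0.02 (-0.11 to 0.15). Over the 10 members the median log2 fold change without the pair was 0.02 at 24 h against air, 0.07 at 72 h against air and 0.05 at 72 h against 24 h. The numbers of members called without the pair were 0, 1 and 0, where 0.0444%, 7.12% and 15.1% of 15753 genes tested were called. A fit with mt-Co1 and Gm29216 counted together gave log2 fold changes of 0.34, 0.49 and 0.14 in the 3 comparisons.

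**Figure D3:**
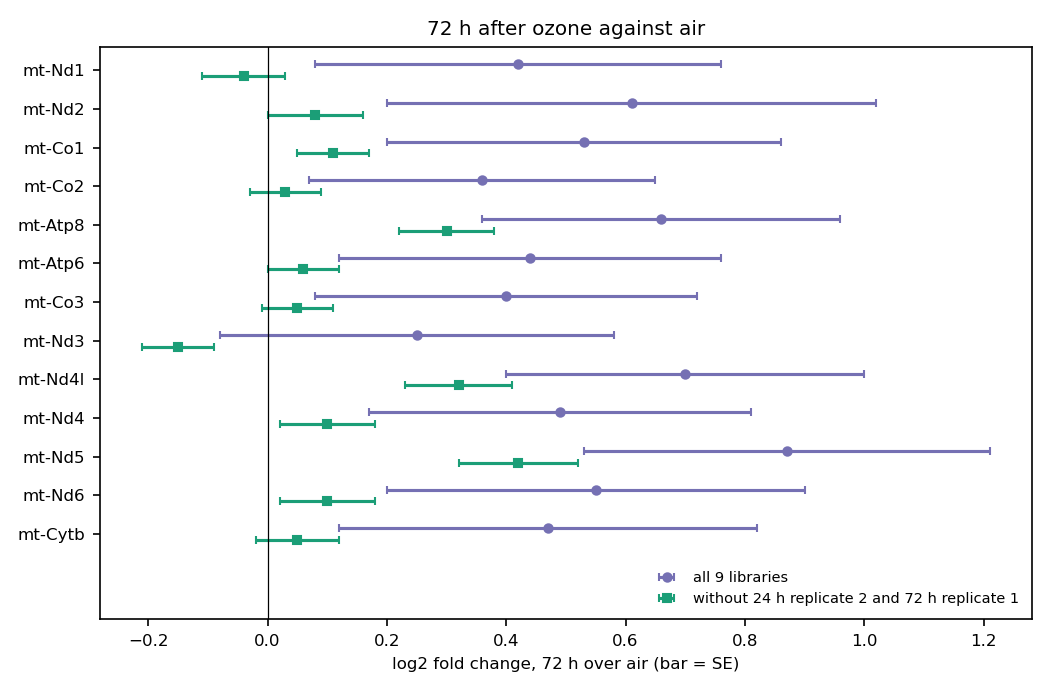
Log2 fold change at 72 h over air with its SE for the 13 coding genes of chromosome M, in their order along it from top to bottom; circles are the fit of all 9 libraries and squares the fit without 24 h replicate 2 and 72 h replicate 1. Without these libraries mt-Nd5 (0.42), mt-Nd4l (0.32) and mt-Atp8 (0.30) lie apart from the other 10 genes, which lie between -0.15 and 0.11.

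mt-Nd5 was the member that departed from the rest. Its log2 fold change at 72 h against air was 0.87 ± 0.34 (SE), higher in 3 of 3 libraries, with an adjusted p of 0.158 (edgeR). Without 24 h replicate 2 and 72 h replicate 1 it was 0.42 ± 0.10 with an adjusted p of 0.0437, which made it the 1 member called. With each of the other 7 libraries left out in turn, the log2 fold changes ran from 0.32 to 0.48. Leaving out a further 24 h or 72 h library left 1 library in its group, so only the effect size is given there. The call did not hold in every fit. With air replicate 1 or 3 also left out, the adjusted p was 0.0395 and 0.0246 (edgeR). Leaving out air replicate 2, the library with little Xist, in addition to the pair gave 0.47 with an adjusted p of 0.0672. That fit called 382 of all genes, against 1122 without the pair alone. Set against 24 h, mt-Nd5 at 72 h had a log2 fold change of 0.56 ± 0.34 (adjusted p = 0.291), and of 0.38 ± 0.11 without the pair (adjusted p = 0.0507). At 24 h against air it was 0.31 ± 0.34 (adjusted p = 0.65).

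Proportions among the 10 genes do not depend on how libraries are scaled or on how much mitochondrial RNA a library holds. mt-Nd5 took 5.08%, 4.54% and 4.88% of the summed counts of the 10 genes at 24 h, 6.6%, 6.16% and 6.27% at 72 h, and 5.16%, 5.16% and 4.45% in air. The 72 h libraries, including replicate 1 with its other cells, lay together above all 6 other libraries, while 24 h replicate 2 lay within the range of air. The share of mt-Nd5 at 72 h exceeded that in air by 1.42 percentage points and that at 24 h by 1.51 points, each with an exact two-sided permutation p of 0.1, the smallest that 3 against 3 mice allow. With 30 such tests over 10 genes and 3 comparisons, none could pass a threshold of 0.05. The ratio of mt-Nd5 to mt-Nd4 counts was 0.528 ± 0.0229 at 24 h, 0.684 ± 0.0387 at 72 h and 0.53 ± 0.0296 in air (SD, n = 3 each). The ratio of mt-Nd6 to mt-Nd5, genes on opposite strands that meet at their stop codons, was 0.324 ± 0.0162 at 24 h, 0.256 ± 0.00398 at 72 h and 0.322 ± 0.0233 in air.

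The proportions of the other members moved less, and most depended on the pair of libraries or on the denominator. At 24 h against air, mt-Nd2 (5.36% against 4.92%) was apart and higher and the other 9 overlapped, and the excess of mt-Nd2 was 0.43 percentage points with the pair and 0.20 without it. The shares at 72 h of mt-Co2 (10.6% against 11.5%) and mt-Atp6 (10.7% against 11%) were lower than in air in all 3 libraries, and the remaining 7 overlapped. Without the pair these differences were -0.50 points for mt-Co2, against -0.85 with it, and -0.20 points for mt-Atp6, against -0.34 with it, and mt-Nd1 was then also apart and lower (-0.54 points). Between 72 h and 24 h, mt-Nd5 and mt-Co1 (30.9% against 29.9%) were apart and higher, and mt-Cytb (8.64% against 8.97%), mt-Co3 (10.7% against 11.8%) and mt-Atp6 (10.7% against 11%) apart and lower. Without the pair the difference was 0.45 points for mt-Co1, against 1.01 with it, and -0.52 points for mt-Co3, against -1.06 with it. It was -0.10 points for mt-Cytb, against -0.33, and -0.12 points for mt-Atp6, against -0.29. In these smaller groups mt-Nd1, mt-Nd2 and mt-Co2 were also apart and lower, and mt-Nd4 apart and higher, at 72 h against 24 h. Groups of fewer libraries lie apart more easily by sampling alone. With all 9 libraries, each share that was apart had an exact two-sided permutation p of 0.1 (0.333 adjusted over 30 tests). No share over all genes stands beside the separations of proportions, with the pair or without it, so they carry little weight. With all 13 coding genes as the denominator, mt-Co1 overlapped and mt-Co2 was apart and lower at 72 h against 24 h. With levels per kilobase, mt-Atp6 overlapped in both comparisons with 72 h, mt-Cytb overlapped between 72 h and 24 h, and mt-Co1 was apart and higher than in air. mt-Nd5 at 72 h was apart and higher than in both other groups with each of these denominators, and by 1.29 points over air and 1.24 points over 24 h without the pair. A share is bound to fall where that of another gene grows, so these values are not independent of mt-Nd5.

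The short coding genes outside the 10 also differed in proportion at 72 h. mt-Nd4l, a complex I subunit, reached 0.141, 0.128 and 0.14 of the counts of its mRNA partner mt-Nd4 at 24 h, 0.16, 0.161 and 0.159 at 72 h, and 0.143, 0.139 and 0.133 in air. mt-Atp8, a complex V subunit, reached 0.227, 0.213 and 0.222 of the counts of its partner mt-Atp6 at 24 h, 0.257, 0.26 and 0.267 at 72 h, and 0.237, 0.228 and 0.208 in air. In both pairs all 72 h values lay above all others, although each pair is known as a single mRNA. mt-Nd3, another complex I subunit, went the other way: its counts relative to the sum of the 10 genes were 1.1% at 24 h, 0.907% at 72 h and 1.08% in air, with every 72 h library below every other. In the test over all genes without the pair of libraries, the log2 fold changes at 72 h against air were 0.32 ± 0.09 for mt-Nd4l (adjusted p = 0.0588), 0.30 ± 0.08 for mt-Atp8 (adjusted p = 0.057) and -0.15 ± 0.06 for mt-Nd3 (adjusted p = 0.161). On the same 7 libraries mt-Nd4l passed with DESeq2 (adjusted p = 0.0122) and with upper quartile scaling in edgeR (0.0472) and not with limma voom (0.0544), and mt-Atp8 passed with all 3 (0.00948, 0.0449 and 0.0488). Leaving out air replicate 2 as well gave adjusted p-values of 0.0893 for mt-Nd4l and 0.102 for mt-Atp8 (edgeR).

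Gm29216, the copy of the last part of mt-Co1, moved against mt-Co1 at 72 h. It stood at 895, 1957 and 880 CPM at 24 h, 1454, 696 and 749 CPM at 72 h, and 898, 920 and 1023 CPM in air. Its counts relative to those of mt-Co1 were 0.108, 0.137 and 0.108 at 24 h, 0.0809, 0.0823 and 0.0862 at 72 h, and 0.108, 0.112 and 0.132 in air, so that every 72 h library lay below the other 6. Its log2 fold change at 72 h against air was 0.03 ± 0.39 (adjusted p = 0.971) in all libraries and -0.37 ± 0.08 (adjusted p = 0.0289) without the pair. That call held when air replicate 1 or 3 was also left out (adjusted p = 0.0309 and 0.0248, edgeR). It was lost, with an adjusted p of 0.0576, when the further library was air replicate 2.

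**Figure D4:**
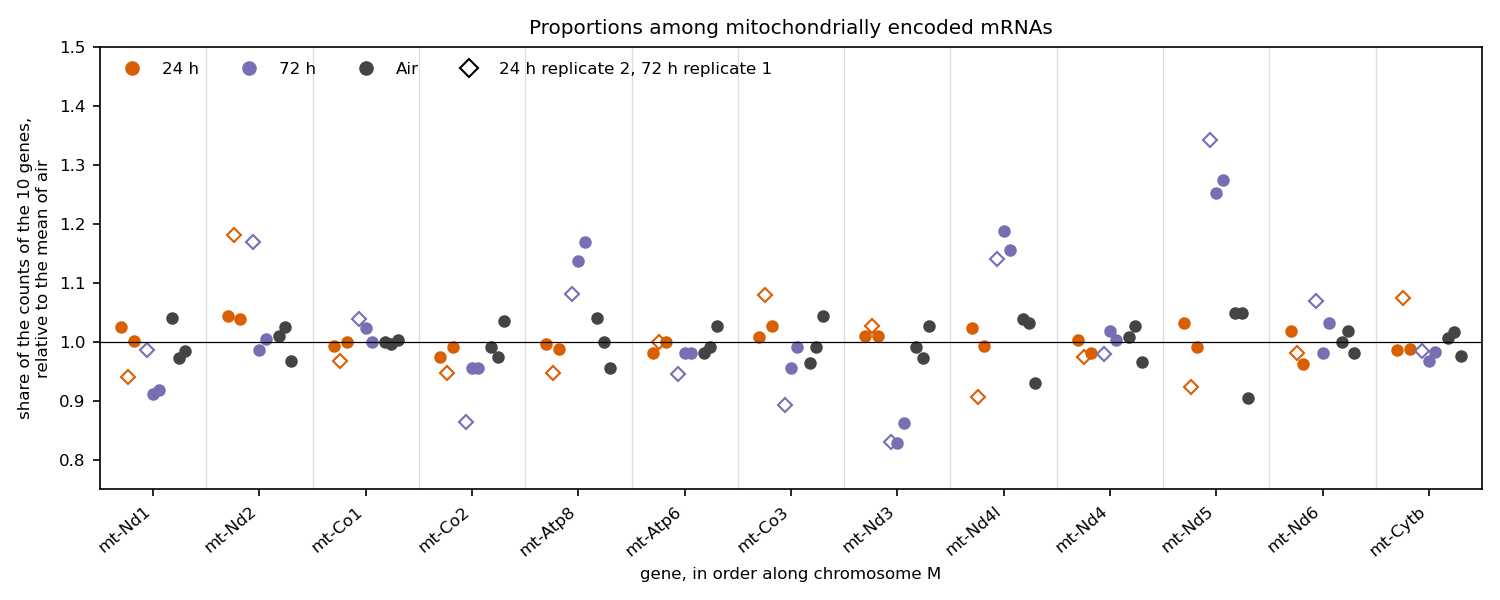
Counts of each of the 13 coding genes of chromosome M, in their order along it, as a share of the summed counts of the 10 genes and divided by the mean share in air (y axis, starting at 0.75; the line marks 1), for the 24 h, 72 h and air libraries; open diamonds are 24 h replicate 2 and 72 h replicate 1. The 72 h points of mt-Nd5, mt-Nd4l and mt-Atp8 lie above, and those of mt-Nd3 below, the points of both other groups.

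Markers of some cell types also differed from air at 72 h, beside the proportions above. The summed level of 10 fibroblast and endothelial markers was 131 to 143 CPM at 24 h, 179 to 196 CPM at 72 h and 138 to 146 CPM in air, and that of 20 alveolar macrophage markers was 29402 to 39994 CPM at 24 h, 33259 to 39752 CPM at 72 h and 43176 to 45700 CPM in air. Of 14 epithelial markers, 5 rose at 72 h against air and 0 fell, where 1.71% of all genes rose, although their sum overlapped between the groups (245 to 300 CPM at 72 h and 239 to 276 CPM in air). T cell markers summed to 131, 25.1 and 33.4 CPM at 72 h and 9.25 to 23 CPM in air, and neutrophil markers to 100, 27.1 and 30.4 CPM at 72 h and 19.4 to 26.9 CPM in air, so that both were above air in all 3 libraries at 72 h. With all 9 libraries, 0 of 14 T cell, 0 of 8 fibroblast and endothelial and 1 of 7 neutrophil markers tested rose at 72 h against air. Without the pair, 1 of 14, 5 of 8 and 3 of 6 rose, where 7.12% of all genes were called in either direction. In 72 h replicates 2 and 3, B cell (3.42 and 4.55 CPM), erythroid (75.8 and 12.3 CPM) and serous macrophage sums (154 and 157 CPM) overlapped those of air. The part of these cells in the proportions of the mitochondrial mRNAs was not tested.

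The 2 rRNA genes of chromosome M were measured at low levels for such abundant RNAs, with mt-Rnr1 at 97.3 to 116 CPM and mt-Rnr2 at 253 to 328 CPM in the 7 libraries. In 24 h replicate 2 and 72 h replicate 1, mt-Rnr1 had 260 and 233 CPM and mt-Rnr2 518 and 493 CPM, both above the rest. No tRNA gene of the chromosome exceeded 78 counts in a library, and 20 of the 22 had at most 10 in each. Neither rRNA was called in any comparison, and ribosomal RNA removal is not described in the labels.

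The nuclear-encoded subunits, which are built into the same complexes, gave another picture. At 24 h against air, 0 of 78 nuclear subunits of complexes I to V were called by edgeR and by limma voom and 0 by DESeq2, 8 had an unadjusted p under 0.05, and the median log2 fold change was 0.10. At 72 h against air, 20 fell, 0 rose and 58 did not pass, with a median of -0.28 and no positive value among the 78, where 3.77% of all genes fell. All 3 libraries at 72 h lay below all air libraries for 65 of the 78, and 22.1% of all genes did so. The comparison of 72 h with 24 h gave 75 that fell, 0 that rose and 3 that did not pass, with a median of -0.38, where 12.8% of all genes fell. The libraries were apart for 78 of 78 there, against 22.7% of all genes that were lower in all 3 libraries. By complex, the genes that fell at 72 h against 24 h were 36 of 37 in complex I, 4 of 4 in complex II, which has no mitochondrially encoded subunit, 7 of 9 in complex III, 11 of 11 in complex IV and 17 of 17 in complex V. Without the pair of libraries they were 21 in complex I, 0 in complex II, 2 in complex III, 6 in complex IV and 12 in complex V, where 8.50% of all genes fell.

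Among them was Ndufa9, an accessory subunit of complex I, with 66.4, 68.2 and 64.4 CPM at 24 h, 48, 50.4 and 54.1 CPM at 72 h, and 64.2, 62.8 and 65.6 CPM in air. It fell at 72 h by 0.34 on the log2 scale against air (SE 0.06, adjusted p = 0.0238, called in 1 of 9 fits with a library left out) and by 0.38 against 24 h (SE 0.06, adjusted p = 0.00669, called in 9 of 9). Ndufa5, also in complex I, averaged 14.8 CPM at 72 h and 21.7 CPM in air and fell by 0.55 (adjusted p = 0.0236, called in 2 of 9). Cyc1, the cytochrome c1 of complex III that works beside the product of mt-Cytb, averaged 59.9 CPM at 72 h and 78 CPM at 24 h, and fell by 0.38 (adjusted p = 0.00818). Cox6a1 of complex IV averaged 67.6 CPM at 72 h and 95.8 CPM at 24 h, with a log2 fold change of -0.50 (adjusted p = 0.00795). Atp5f1, of the peripheral stalk of complex V, averaged 154 CPM at 72 h and 205 CPM at 24 h, and fell by 0.41 (adjusted p = 0.0095). Sdha, the flavoprotein of complex II, averaged 279 CPM at 72 h and 325 CPM at 24 h, with a log2 fold change of -0.22 (adjusted p = 0.0478, called in 0 of 9 fits with a library left out).

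The number that fell at 72 h depended on which libraries entered. Without 24 h replicate 2 and 72 h replicate 1, 41 of 78 fell against 24 h (median -0.30, where 8.50% of all genes fell) and 9 of 78 against air (median -0.23, where 2.66% fell). The 20 calls against air came from a fit that called 860 of all genes, and both numbers changed with single libraries. Leaving out air replicate 2 or 3, or 24 h replicate 1 or 3, left 0 subunits called. The same held for 72 h replicate 1, 2 or 3. These fits, each without 1 library, called 7 to 89 of all genes. Without air replicate 1, 4 subunits and 198 of all genes were called. Without 24 h replicate 2, 36 subunits and 1625 of all genes were called. Against 24 h, 4 were called without 72 h replicate 2, 35 without 24 h replicate 1, and 50 to 70 without any other library. Of all genes, 340, 1055 and 1284 to 2499 were called in the same order, against 2855 with all libraries. With the pair out, leaving out air replicate 2 as well left 2 called against air and 20 against 24 h. The same fit called 382 and 1618 of all genes, against 1122 and 2377 without the pair alone. Leaving out a further 24 h or 72 h library leaves 1 library in its group, so calls from such fits are not counted.

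Summed over the 78 genes, the nuclear subunits stood at 7434, 7676 and 7316 CPM at 24 h, 5668, 5799 and 6125 CPM at 72 h, and 6728, 6894 and 7527 CPM in air. The 72 h libraries lay below all others. Here 24 h replicate 2 was the highest and 72 h replicate 1 the lowest of all libraries, though neither lay far from its group. The summed CPM of the 10 mitochondrial genes divided by that of the nuclear subunits was 3.7, 6.33 and 3.67 at 24 h, 10.1, 4.71 and 4.68 at 72 h, and 4.07, 3.96 and 3.39 in air. All 3 ratios at 72 h lay above air, and the 24 h and air libraries overlapped. Within complex IV alone, the mitochondrial sum (mt-Co1, mt-Co2 and mt-Co3) over the nuclear sum was 12.4, 20.6 and 12.4 at 24 h, 33.7, 15.7 and 15.7 at 72 h, and 13.5, 13.3 and 11.5 in air. Within complex I it was 4.47, 7.22 and 4.25 at 24 h, 12.7, 5.76 and 5.78 at 72 h, and 4.94, 4.68 and 3.76 in air. The difference between mitochondrial and nuclear genes was not tested, since both sums are scores over chosen genes.

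**Figure D5:**
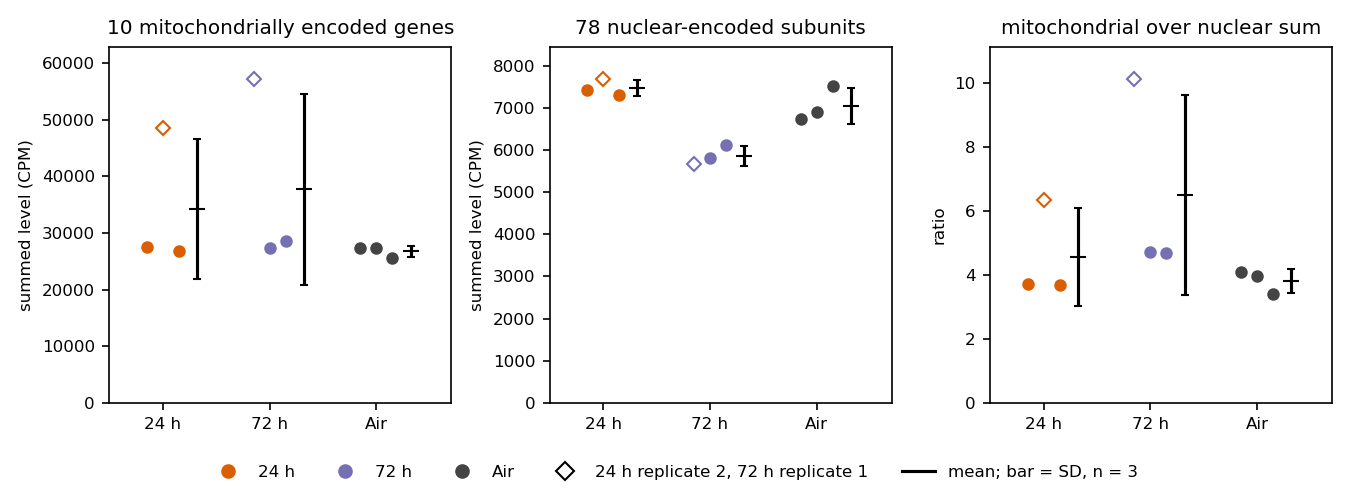
Summed CPM of the 10 mitochondrially encoded genes (left), summed CPM of 78 nuclear-encoded subunits of complexes I to V (middle) and their ratio (right), all from 0, in the 24 h, 72 h and air libraries; open diamonds are 24 h replicate 2 and 72 h replicate 1, and bars are mean and SD (n = 3). The diamonds stand apart for the mitochondrial sum, and all 72 h points stand below the others for the nuclear sum.

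Genes that make and process mitochondrial RNA were largely not called. Of 7 genes of mitochondrial transcription, 0 were called at 24 h or 72 h against air (edgeR, DESeq2 and limma voom, with an unadjusted p under 0.05 in 1 and 2 by edgeR). At 72 h against 24 h, 1 fell, where 12.8% of all genes fell. That gene was Tfam, which packages mitochondrial DNA and activates its transcription, with an average of 29.5 CPM at 72 h and 35.2 CPM at 24 h and a log2 fold change of -0.25 (adjusted p = 0.0455). It was called in 1 of 9 fits with a library left out, and its adjusted p was 0.152 without the pair of libraries. Without the pair, 1 other gene of this list fell at 72 h against 24 h, where 8.50% of all genes fell. Of 21 genes of mitochondrial RNA processing and turnover, 0 were called against air at either time (edgeR; unadjusted p under 0.05 in 1 at 24 h and 4 at 72 h, with 1 called by DESeq2 at 72 h and 0 by limma voom) and 4 fell at 72 h against 24 h, where 12.8% of all genes fell: Hsd17b10 and Trmt10c, which belong to the enzyme that cuts tRNA 5′ ends, the helicase Supv3l1, and Ptcd2. Hsd17b10 averaged 22.7 CPM at 72 h and 27.8 CPM at 24 h (log2 fold change -0.29, adjusted p = 0.0108) and was called in 9 of 9 such fits, but had an adjusted p of 0.0605 without the pair. None of the 4 passed without the pair of libraries. Lrpprc, which stabilises mitochondrial mRNAs, averaged 59.8 CPM at 72 h and 65.9 CPM in air (log2 fold change -0.14, adjusted p = 0.258).

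Of 12 genes of mitochondrial translation, 3 fell at 72 h against air (Tufm, Tsfm and Oxa1l) and 4 at 72 h against 24 h (Tufm, Tsfm, Gfm1 and Mrrf), where 3.77% and 12.8% of all genes fell. Without the pair 1 (Tsfm) passed against air and 4 against 24 h, where 2.66% and 8.50% of all genes fell. Tufm, the elongation factor that brings tRNAs to the mitochondrial ribosome, had 80, 80.2 and 78.6 CPM at 24 h, 55.4, 58.2 and 61.6 CPM at 72 h, and 67.1, 69.6 and 70.2 CPM in air. Its log2 fold change was -0.45 at 72 h against 24 h (adjusted p = 0.00433, called in 9 of 9 fits with a library left out) and -0.24 against air (adjusted p = 0.038, called in 1 of 9). Of 11 genes that maintain mitochondrial DNA, Mgme1, a nuclease, fell at 72 h against 24 h (log2 fold change -0.28, adjusted p = 0.0493, called in 1 of 9), where 12.8% of all genes fell. Mgme1 was not called by DESeq2 or limma voom there. Against air, 0 of the 11 were called with all 9 libraries (edgeR, with an unadjusted p under 0.05 in 0 at 24 h and 4 at 72 h, and 1 called by DESeq2 at 72 h). Without the pair, 1 fell at 72 h against air, Tk2 (adjusted p = 0.041, edgeR), where 2.66% of all genes fell. In the same fit 1 fell at 72 h against 24 h, Mgme1 (adjusted p = 0.0301), where 8.50% of all genes fell. Of 35 assembly factors of the complexes, 5 fell at 72 h against air and 12 at 72 h against 24 h, where the same 3.77% and 12.8% of all genes fell. Without the pair they were 3 and 5, where 2.66% and 8.50% of all genes fell. Named here are genes called with all 9 libraries. Among them was Cox16, a complex IV assembly factor, with 12.3 CPM at 72 h and 18.7 CPM at 24 h (log2 fold change -0.60, adjusted p = 0.00789). Of 7 regulators of mitochondrial biogenesis tested, such as Gabpa and Yy1, 0 were called in any comparison by edgeR, DESeq2 or limma voom, and 0 had an unadjusted p under 0.05. Of the translation genes and assembly factors, 0 were called at 24 h against air by edgeR (unadjusted p under 0.05 in 3 and 8), 1 of each by DESeq2 and 0 by limma voom.

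Over the 9 libraries, the profiles of the 10 genes were close to each other. Likeness was measured as the root mean square difference between centred log2 CPM profiles, in log2 units, over 9 libraries that share the high values of 24 h replicate 2 and 72 h replicate 1. Against the mean of the other members, mt-Co1 (0.0284) and mt-Nd4 (0.0317) were closest, mt-Nd6 stood at 0.0396 despite its opposite strand, and mt-Nd5 (0.208) was farthest, followed by mt-Nd2 (0.0997) and mt-Co3 (0.0929). Among 10025 genes outside chromosome M that averaged at least 5 CPM, the most alike were Arhgef18 (0.103), the nuclear copy Gm13340 (0.111), Rasa3 (0.117), Psd3 (0.12) and Pitpnc1 (0.135). Arhgef18, a guanine nucleotide exchange factor, had 40.5, 86.3 and 41.4 CPM at 24 h, 79.7, 44.9 and 42.9 CPM at 72 h, and 40.5, 39.7 and 39.5 CPM in air. These 5 genes have in common with the members that 24 h replicate 2 and 72 h replicate 1 are their highest libraries.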

How the data were processed

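The deposited table gives estimated counts for each gene without scaling to depth, and 80.5% of its values were whole. Per the submitters' processing notes, Trimmomatic 0.39, FastQC, Salmon and DESeq2 were used on GRCm38.p6. Annotation release, options and strand setting were not given in the sources used here. Lysis of red cells, a check of RNA integrity and a stranded total RNA kit are given in the labels' protocols. GENCODE M21 matched 54107 of 54281 identifiers and gave symbols, coordinates and transcript sequences. Nuclear copies were found with blastn.

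Counts were rounded and analysed in R 4.3.3 with edgeR 4.0.16 (filterByExpr, TMM scaling, robust quasi-likelihood fit of all 9 libraries, 15713 genes, common biological coefficient of variation 0.312). Benjamini-Hochberg adjustment ran over every gene in the fit. A gene is called where its adjusted p is under 0.05, and "rose" and "fell" mean called. SE is the log2 fold change over the square root of F. Intervals are the log2 fold change ± 1.96 SE, which with few libraries is narrower than a true 95% interval. The fit was tested on simulated data, and no pair of libraries within a group agreed within sampling noise. Alternatives used DESeq2 1.42.0, limma 3.58.1 (voom), other scalings and filters, a replicate block, and fewer libraries. Fits without the pair of libraries that also changed the tool or scaling or left out a further library, and mt-Co1 counted with Gm29216, were added after the data were seen. The members and gene lists were chosen with earlier results of these data known. Named from each list are up to 4 called genes with the smallest p, else the 2 of highest level; also the 3 most counted nuclear copies and the 5 genes most like the members. Copies listed at 0 were named after their values were seen. The spread between mice limits precision, not depth: the least counted member, mt-Nd6, had 19354 to 48447 counts in a library.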

Additional observations from a re-analysis of the deposited data

How the results depend on the processing

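The 10 members were called in none of the 3 comparisons under each other scaling, filter or tool, with the replicate block, or with any 1 library left out of the 9. Without 24 h replicate 2 and 72 h replicate 1, 1 member (mt-Nd5) was called at 72 h against air, as it was with DESeq2, limma voom or upper quartile scaling on these 7 libraries, which also called 1 at 72 h against 24 h. At 72 h against air these fits called 1122 (edgeR), 1727 (DESeq2), 1234 (limma voom) and 1019 (upper quartile scaling) of all genes. At 72 h against 24 h, DESeq2, limma voom and upper quartile scaling called 2874, 2293 and 2119 of all genes. Leaving out a further air library gave 0 to 1 members in both comparisons, with 382 to 1348 and 1618 to 3691 of all genes called.

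The 20 nuclear subunits called at 72 h against air became 7 with DESeq2 size factors, 2 with upper quartile scaling, 13 scaled on genes outside chromosome M, 5 with no filter, 7 with a filter of 1 CPM in 3 libraries, 0 with the replicate block and 55 with DESeq2. Of all genes, these fits called 506, 299, 765, 270, 459, 35 and 1898 in the same order, against 860 in the main edgeR fit. Without the pair of libraries 9 nuclear subunits were called, and then 3 with upper quartile scaling, 39 with DESeq2 and 8 with limma voom. The fits without the pair called 1122, 1019, 1727 and 1234 of all genes in that order. The 75 called at 72 h against 24 h became 41 without the pair, and then 21 with upper quartile scaling and 37 with limma voom. Of all genes, 2377, 2119 and 2293 were called there, against 2855 in the main edgeR fit. With libraries left out but more than 1 kept in each group, these counts ran between 0 and 36 against air, between 4 and 70 against 24 h, and between 0 and 1 at 24 h against air. Of all genes, those fits called 7 to 1625, 340 to 3691 and 0 to 525 in the same order. Replicate numbers are shared by the groups, and the numbers were not taken to pair the mice. In same-numbered libraries, deviations from the group means correlated between -0.613 and 0.475. The pair of libraries with other cells is among them, and its members correlated with each other at 0.731. These correlations therefore cannot decide whether the numbers mark a pairing. For 52 called values of single nuclear genes, 617 of 988 recomputed values kept their call, 371 lost it and 0 changed direction. Apart from fits with fewer samples, the cause of these changes was not tested.

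Directions of log2 fold changes that were not called with all 9 libraries turned as follows. Among the values below, only those of Gm29216 at 72 h against air without the pair were called. Their adjusted p was 0.0289 with edgeR and 0.0374 with upper quartile scaling in edgeR. It was 5.18e-05 with DESeq2 and 0.0211 with limma voom. Without the pair, at 72 h against air, they were -0.04 (mt-Nd1), -0.15 (mt-Nd3), -0.06 (mt-Rnr2) and -0.37 (Gm29216), and at 72 h against 24 h -0.08 (mt-Nd1), -0.00326 (mt-Nd2) and 0.03 (mt-Rnr1). mt-Co3 at 72 h against 24 h was 0.02 with upper quartile scaling and 0.01 with the filter of 1 CPM. Gm29216 at 72 h against air was -0.00053 with the replicate block and -0.05 with limma voom, and without the pair -0.34 (upper quartile), -0.38 (DESeq2) and -0.37 (limma voom); at 24 h against air without the pair it was -0.09, and -0.10, -0.09 and -0.09 with the same 3 choices.

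With libraries left out, log2 fold changes at 24 h against air ran between -0.06 and 0.43 (mt-Nd5), -0.05 and 0.41 (mt-Nd4l), -0.05 and 0.44 (mt-Atp8) and -0.13 and 0.57 (Gm29216). At 72 h against air they ran between -0.06 and 0.61 (mt-Nd1), -0.17 and 0.42 (mt-Nd3), -0.08 and 0.42 (mt-Rnr2) and -0.45 and 0.2 (Gm29216). At 72 h against 24 h they ran between -0.39 and 0.4 (mt-Nd1), -0.45 and 0.54 (mt-Nd2), -0.25 and 0.49 (mt-Nd4), -0.27 and 0.55 (mt-Nd6), -0.37 and 0.48 (mt-Cytb), -0.25 and 0.53 (mt-Co1), -0.31 and 0.38 (mt-Co2), -0.4 and 0.36 (mt-Co3), -0.32 and 0.44 (mt-Atp6), -0.56 and 0.22 (mt-Nd3), -0.00287 and 0.68 (mt-Nd4l), -0.05 and 0.66 (mt-Atp8), -0.56 and 0.5 (mt-Rnr1), -0.49 and 0.17 (mt-Rnr2) and -0.78 and 0.14 (Gm29216).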
